A study of Mus musculus with 5 samples.

Results

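Collagen and laminin genes encode the main structural chains of the extracellular matrix, and 52 of them were measured in mouse striatum. They were found by symbol: every array probe whose platform gene symbol starts like Col1a1 or Lama1 (a collagen number with its alpha chain, or a laminin alpha, beta or gamma chain) was taken, which gave 61 of 26423 probes. Of these, 2 probes match the pattern only by spelling, because Col4a3bp (now Cert1) encodes a ceramide transfer protein, and they were set apart. The other 59 probes belong to 52 of the 17742 named genes, and each gene is represented by its brightest probe, the one with the highest mean over all mice. Among them are 16 genes of basement membranes, 11 fibrillar collagens and 25 other collagens.

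The RNA came from the striatum of 5 male FVB mice aged 12 months, profiled on single-colour oligonucleotide arrays. Every mouse had a transgene for Huntington's disease (HD), in which the human ubiquitin promoter drives GFP fused with HTT exon 1 (human sequence, 84 CAG repeats). The 3 HD_miR196a mice, offspring of a cross of both transgenic lines, had a further transgene in which the same promoter drives the miR-196a precursor, and the 2 HD mice did not. The ubiquitin promoter is not restricted to neurons, and animals free of the HD transgene were not analysed here. Each mouse has 1 value per probe, which combines 2 technical repeats.

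Collagens are secreted proteins whose chains wind around each other into stiff helices. Type IV collagen forms a net that, joined with a laminin net by nidogen and perlecan, makes the basement membrane, and in the brain this sheet wraps the blood vessels and lines the pia. Laminins are cross-shaped assemblies of an alpha, a beta and a gamma chain that bind integrins and dystroglycan on cells. Fibrillar collagens such as types I and III form cable-like fibrils, and in the brain they are made mainly by fibroblasts of the meninges and around larger vessels. A difference in a tissue sample can come from fewer cells of a type or from less RNA per cell, and these cannot be told apart here.

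No collagen or laminin gene passed the adjusted threshold between the groups. Values below are log2 of the quantile-normalized intensity, and a difference is always HD_miR196a minus HD on that scale. With limma, 0 of 52 members had a Benjamini-Hochberg adjusted p under 0.05 (smallest adjusted p = 0.979), and over all 26423 probes 0 were called, 0%. At an unadjusted p under 0.05 limma gave 1 higher member, Col10a1, where 1.82% of all named genes were higher, and 1 lower member, Col9a3, where 1.89% were lower. Over all probes, 1099 had such a p. The member count of 2 of 52 stands beside 3.71% of named genes in both directions. It was 4 without HD_miR196a mouse 1 (3.21% of named genes), 0 without HD_miR196a mouse 2 (2.59%) and 6 without HD_miR196a mouse 3 (5.06%). It was 1 without HD mouse 1 (3.87%) and 0 without HD mouse 2 (4.74%).

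All HD_miR196a mice were above both HD mice for 5 members, against 10.0% of named genes, and below both for 3 members, against 10.7%. The 5 were Col4a5, Col7a1, Col9a1, Col10a1 and Col20a1, and the 3 were Col4a4, Col8a1 and Col9a3. Differences were above 0 for 30 of 52 members, where 48.9% of named genes were above 0. Without scaling between arrays, where the median of all probes moved to -0.20, 9 of 52 were above 0 and 32 of 52 were above that median. The median difference of the 52 members was 0.029, with quartiles at -0.046 and 0.10. For all named genes the median difference was -0.0042, with quartiles at -0.12 and 0.11. Only Col3a1 and Col10a1 of the 52 differed by more than 0.5 in either direction, both on dim probes.

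**Figure D1:**
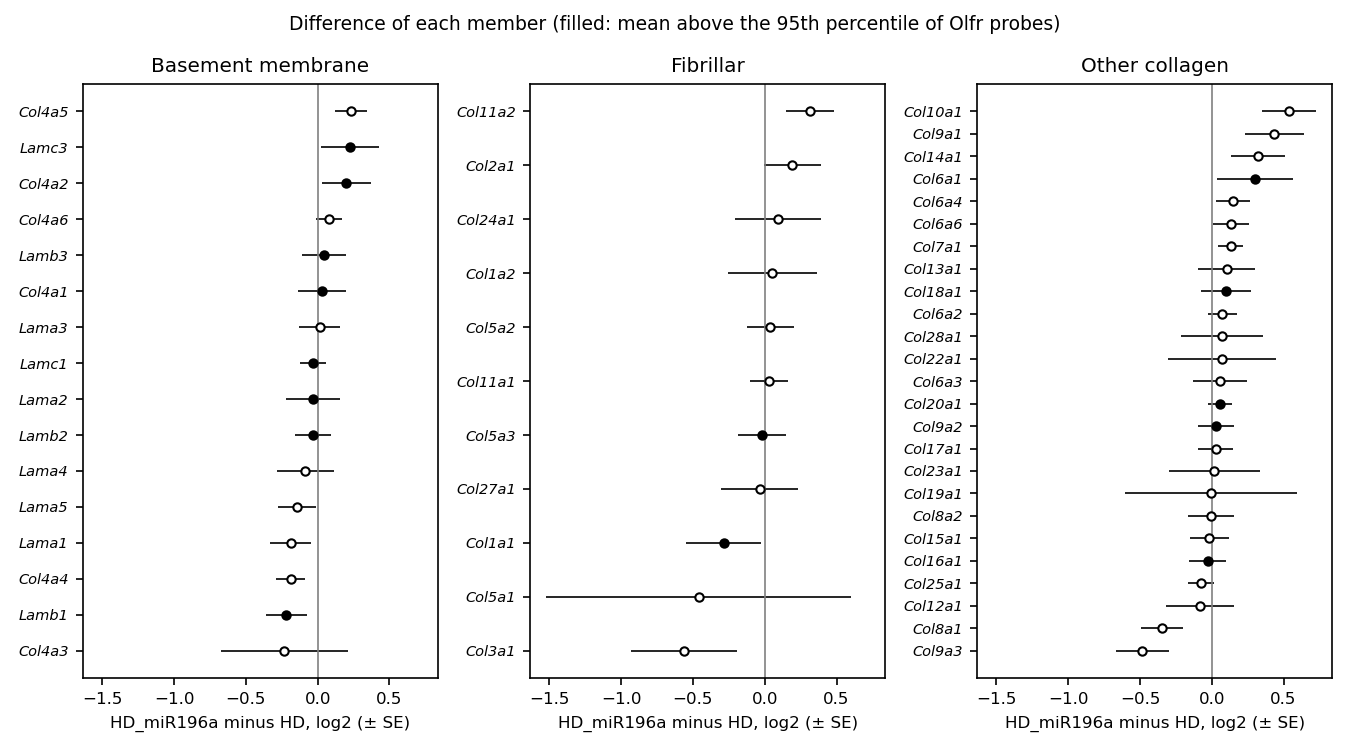
Difference HD_miR196a minus HD on the log2 scale (horizontal axis, ± SE from limma) for each of the 52 collagen and laminin genes, in 3 panels by class, with filled points for the 15 genes whose mean is above the 95th percentile of olfactory receptor probes. Points lie on both sides of 0 in each class, from -0.56 for Col3a1 to 0.54 for Col10a1. Without scaling between arrays 9 of the 52 would lie above 0, and 32 above the median of all probes.

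The level of each probe was set against 544 probes of olfactory receptor (Olfr) genes, which are mostly silent in striatum. The median of their means was 4.99, the 95th percentile 8.31, and 15 of the 52 members (28.8%) had a mean above that percentile, against 48.8% of all named genes. In the basement membrane class 8 of 16 genes were above it: Col4a1, Col4a2, Lama2, Lamb1, Lamb2, Lamb3, Lamc1 and Lamc3. Among the fibrillar collagens only Col1a1 and Col5a3 were above it, 2 of 11. Of the other collagens 5 of 25 were, namely Col6a1, Col9a2, Col16a1, Col18a1 and Col20a1. Lamc3 at 8.34 and Lamb3 at 8.38 were just above, and Col19a1 at 8.30 and Col11a2 at 8.24 just below. A dim probe can mean a weak probe or a silent gene, and a member in the Olfr range has a level that these arrays do not separate from background.

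Type I and type III collagen genes are reported targets of miR-196, which lowers transcripts whose sequence pairs with its seed, bases 2 to 8 of the mature strand. The mature sequences from RefSeq (GRCm38.p6) are shown because the transgene adds this microRNA, with the seed in capitals.
miR-196a-5p: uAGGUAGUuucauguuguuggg
miR-196b-5p: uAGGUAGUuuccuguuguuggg
The mouse genome has miR-196a-5p at chr11:96265187-96265208 (plus strand, Mir196a-1) and chr15:102973365-102973386 (plus strand, Mir196a-2), and miR-196b-5p at chr6:52230129-52230150 (minus strand). Counted from the 5′ end, miR-196b differs from miR-196a by A12C and has the same seed. No other mature microRNA in the table has that seed. Seed matches in the collagen transcripts were not analysed here, nor was the level of miR-196a itself.

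Col1a1, the main chain of type I collagen, had a probe well above the Olfr range. HD_miR196a mice 1 to 3 read 11.26, 11.69 and 11.49, and HD mice 1 and 2 read 11.41 and 12.13, an order of mice kept in all values below. HD mouse 2 was highest, while HD mouse 1 lay among the HD_miR196a mice, so the groups overlapped. The means were 11.48 ± 0.21 (SD, n = 3) and 11.77 ± 0.51 (SD, n = 2), a difference of -0.29 ± 0.26 (SE, limma adjusted p = 0.979). Its 95% interval ran from -0.97 to 0.39. Without HD mouse 2 the difference was 0.072, so its direction rests on that mouse.

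Col1a2, the second chain of type I collagen, had a dim probe. It measured 4.61, 5.18 and 5.05 against 5.30 and 4.49. HD mouse 2 was lowest and HD mouse 1 highest, while for Col1a1, whose chain it assembles with, HD mouse 2 was highest. The difference was 0.054 ± 0.31 (SE), with a 95% interval from -0.76 to 0.86, and it was -0.35 without HD mouse 2, -0.061 without HD_miR196a mouse 2 and -0.14 without scaling. Its mean was inside the Olfr range.

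Col3a1, the chain of type III collagen, was near the bottom of the scale. Deposited intensities were 4.50, 2.51 and 2.00 against 3.99 and 5.49 in the HD mice, which is 2.21, 1.38 and 1.07 against 1.96 and 2.26 after normalization. HD_miR196a mouse 1 lay between the HD mice, and the other HD_miR196a mice were below both. The difference of -0.56 ± 0.37 (SE, 95% interval -1.53 to 0.41, limma adjusted p = 0.979) is one between intensities of a few units, below the Olfr median. It was -0.89 without HD_miR196a mouse 1 and -0.32 without HD_miR196a mouse 3. Of the 3 reported targets, only Col1a1 was therefore measured above background, and its interval includes a fall as large as 0.97 and a rise of 0.39.

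**Figure D2:**
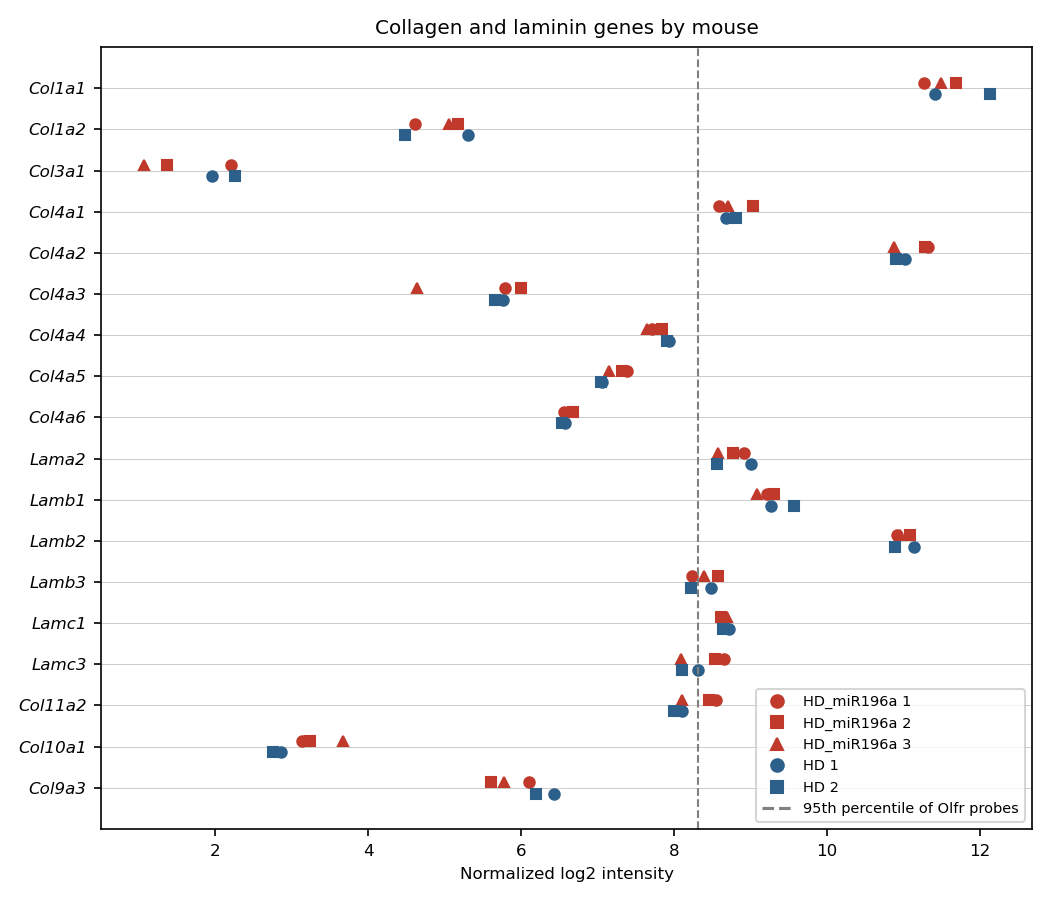
Normalized log2 intensity (horizontal axis) of 18 collagen and laminin genes in each of the 5 mice, with red symbols for HD_miR196a and blue for HD, the mouse number given by the symbol, and a dashed line at 8.31, the 95th percentile of Olfr probes. The red and blue symbols overlap for most genes, and Col1a2 and Col3a1 lie far left of the dashed line.

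The other fibrillar collagens gave no call either. Of the 11, 6 were higher and 5 lower in HD_miR196a mice (2 and 9 without scaling, with 6 of 11 above the median of all probes). Their median difference was 0.029, and the groups overlapped for all 11. Col11a2, a minor fibrillar chain of cartilage and ear, had the smallest p of the class and measured 8.54, 8.46 and 8.10 against 8.11 and 8.00. HD_miR196a mice 1 and 2 stood above the other mice, and the third was level with HD mouse 1. Its difference was 0.31 ± 0.17 (SE, unadjusted p = 0.122), and 0.12 without scaling. Col5a3, a chain of type V collagen, which sits inside type I fibrils, was the other fibrillar gene above the Olfr range. It measured 8.64, 8.74 and 9.09 against 8.77 and 8.91, a difference of -0.016 ± 0.17 (SE).

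Type IV collagen has 6 genes, placed head to head in pairs, and all were measured. Col4a1 and Col4a2 encode the chains found in all basement membranes, while the other 4 have narrower use, as in kidney. The promoter windows of Col4a1 and Col4a2 (250 bases before to 50 after a RefSeq start, GRCm38.p6) share 78 bases on chromosome 8, from 11312777 to 11312854. The window of Col4a1, chr8:11312777-11313076 on the minus strand, is shown because the pair reads from the same stretch in opposite directions. Capitals mark the part that also lies in the window of Col4a2.
Col4a1 promoter: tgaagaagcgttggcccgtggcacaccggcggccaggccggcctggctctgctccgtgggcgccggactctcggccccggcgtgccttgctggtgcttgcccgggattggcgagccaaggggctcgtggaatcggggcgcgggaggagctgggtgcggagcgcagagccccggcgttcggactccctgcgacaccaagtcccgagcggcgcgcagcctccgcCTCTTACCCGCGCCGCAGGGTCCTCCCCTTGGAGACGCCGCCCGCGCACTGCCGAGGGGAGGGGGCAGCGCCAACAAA
The shared part is 73.1% G or C and holds 1 GC box (GGGCGG, searched on both strands), on the opposite strand to the one printed. Over all 32851 windows of 300 bases in the table, 35.7% hold a GC box on either strand, and 25 of the 43 windows of the 39 member genes with an entry do (58.1%). A CCAAT box (CCAAT, both strands) is in 37.4% of all windows and in 14 of the 43, the Col4a1 window among them, where it lies outside the shared part. A TATAAA match, on either strand, is in 13.6% of all windows and 5 of the 43, and not in that of Col4a1.

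Col4a1 measured 8.59, 9.04 and 8.70 against 8.68 and 8.81. Col4a2 measured 11.32, 11.28 and 10.88 against 11.02 and 10.90. HD_miR196a mouse 1 was the lowest of the 5 for Col4a1 and the highest for Col4a2, so the paired genes did not keep the same order of mice. Their differences were 0.031 ± 0.17 and 0.20 ± 0.17 (SE), with 95% intervals from -0.40 to 0.47 and from -0.25 to 0.65. Both signs turn without scaling (-0.18 and -0.049), as does that of Col4a1 with median centring (-0.0081) and without HD_miR196a mouse 2 (-0.10) or HD mouse 1 (-0.032).

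Col4a3 and Col4a4, whose chains assemble with that of Col4a5 in a second type IV net, were in the Olfr range. Col4a3 measured 5.79, 5.99 and 4.64 against 5.76 and 5.65, with HD_miR196a mouse 3 about 1 unit below every other mouse and the rest close together. Its difference of -0.23 ± 0.44 (SE) turned to 0.18 without that mouse. Col4a4 measured 7.71, 7.84 and 7.64 against 7.93 and 7.91 on its brightest of 3 probes. Every HD_miR196a mouse was below both HD mice, by a mean of -0.19 ± 0.10 (SE, unadjusted p = 0.132). The 2 dimmer probes of Col4a4, both below the Olfr median, differed by -0.85 and 0.41, each also without overlap of the groups, so its probes separate the groups in opposite directions. Without scaling the brightest probe differed by -0.37.

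Col4a5 and Col4a6, a head-to-head pair on the X chromosome, had 2 probes each. Col4a5 measured 7.39, 7.32 and 7.15 against 7.06 and 7.05 on its brighter probe. Every HD_miR196a mouse was above both HD mice, a difference of 0.23 ± 0.11 (SE, unadjusted p = 0.0928), while the other probe, also in the Olfr range, differed by -0.14 ± 0.10. Without scaling the brighter probe differed by 0.068, and with the mean of both probes the difference was 0.048. Col4a6 measured 6.56, 6.68 and 6.66 against 6.58 and 6.53, a difference of 0.079 ± 0.093 (SE) that turned to -0.062 without scaling and to -0.060 with the mean of its probes. All 3 type IV genes with several probes thus had probes of opposite sign, and the groups of Col4a5 were separate on 1 of its 2 probes only.

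Laminin genes, 10 in all, were higher for 3 and lower for 7 in HD_miR196a mice (1 and 9 without scaling, with 3 of 10 above the median of all probes). Their median difference was -0.033, with a range from -0.22 to 0.22. Groups overlapped for all 10, and none reached an unadjusted p under 0.05. Of the alpha chains, which carry the cell-binding end, only Lama2 was above the Olfr range. Lama2, the chain of muscle and of the glial side of brain vessels, measured 8.92, 8.78 and 8.57 against 9.01 and 8.56. HD mice held both ends of that range. The difference was -0.033 ± 0.19 (SE), and it was 0.19 without HD mouse 1 and 0.060 without HD_miR196a mouse 3. Lama4 and Lama5, the chains of vascular endothelium, had means of 6.14 and 7.23, inside the Olfr range, with differences of -0.085 ± 0.20 and -0.14 ± 0.13 (SE). Lama1 and Lama3 lay there too, at 6.12 and 6.91, with differences of -0.19 and 0.015.

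Lamb1 and Lamb2 encode the beta chains of most laminins. Lamb1 measured 9.21, 9.31 and 9.08 against 9.26 and 9.57. HD mouse 2 was highest, and HD mouse 1 lay within the HD_miR196a range. The difference of -0.22 ± 0.14 (SE, 95% interval -0.59 to 0.15) was the largest fall among the laminins, and it was -0.064 without HD mouse 2. Leaving out HD mouse 1 gave -0.37, and no scaling gave -0.45. Lamb2, the beta chain of vessels and synapses, measured 10.91, 11.08 and 10.95 against 11.14 and 10.89, with the HD mice outside the HD_miR196a range on either side. Its difference of -0.034 ± 0.12 (SE) became 0.089 without HD mouse 1 and 0.0024 without HD_miR196a mouse 1. Lamb3, a beta chain of skin, measured 8.24, 8.57 and 8.39 against 8.49 and 8.22, a difference of 0.045 ± 0.15 (SE) that was -0.15 without scaling, -0.040 without HD_miR196a mouse 2 and -0.089 without HD mouse 2.

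Lamc1 encodes the gamma chain shared by most laminins. It measured 8.63, 8.61 and 8.70 against 8.72 and 8.64, all 5 mice within 0.11. The difference of -0.032 ± 0.091 (SE) has a 95% interval from -0.27 to 0.21, the narrowest of the laminins above the Olfr range, and it was 0.0099 without HD mouse 1. Lamc3, a gamma chain found in brain and retina among other tissues, measured 8.65, 8.54 and 8.10 against 8.31 and 8.10. HD_miR196a mice 1 and 2 were above both HD mice and the third was level with HD mouse 2, a difference of 0.22 ± 0.20 (SE). It was 0.027 without scaling, 0.11 without HD_miR196a mouse 1, 0.12 without HD mouse 2 and 0.39 without HD_miR196a mouse 3.

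The remaining 25 collagens were higher for 17 and lower for 8 (5 and 20 without scaling), with a median difference of 0.058. Relative to the median of all probes that class median was 0.061 with quantile scaling and 0.076 without scaling. Col10a1, a collagen of growth-plate cartilage, measured 3.14, 3.25 and 3.67 against 2.87 and 2.76, with every HD_miR196a mouse above both HD mice. The difference was 0.54 ± 0.19 (SE, unadjusted p = 0.0378), but deposited intensities were only 7.47 to 12.0, below the Olfr median.

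Type IX collagen, which decorates type II fibrils, gave both directions. Col9a3 measured 6.10, 5.60 and 5.78 against 6.43 and 6.20, lower in every HD_miR196a mouse by -0.49 ± 0.18 (SE, unadjusted p = 0.0490). Col9a1 measured 7.37, 7.01 and 6.77 against 6.71 and 6.52, higher in every HD_miR196a mouse by 0.43 ± 0.21 (SE, unadjusted p = 0.0923). The chains of Col9a1, Col9a2 and Col9a3 assemble with each other, yet the only bright one, Col9a2, measured 10.07, 9.88 and 9.95 against 10.06 and 9.81, a difference of 0.029 ± 0.13 (SE). Col8a1, a short-chain collagen of vessel walls, was lower in every HD_miR196a mouse, at 6.34, 5.96 and 6.13 against 6.56 and 6.43. Its difference was -0.35 ± 0.15 (SE, unadjusted p = 0.0661), in the Olfr range.

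Col20a1 was the only bright member whose groups did not overlap. It measured 10.14, 10.15 and 10.14 against 10.08 and 10.10, and the 5 mice spanned 0.076 in all, less than the SE of the difference, 0.058 ± 0.084. Col7a1, the collagen of anchoring fibrils in skin, measured 6.43, 6.45 and 6.53 against 6.34 and 6.34, a difference of 0.13 ± 0.090 (SE). Col18a1, a collagen of vascular basement membranes that yields endostatin, measured 8.99, 8.56 and 8.66 against 8.76 and 8.51 and differed by 0.099 ± 0.18 (SE). For Col16a1 the difference was -0.029 ± 0.13 (SE) at a mean of 8.94.

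Variation between mice within a group was often larger than the difference between groups. Over the 5 mice, 5 of the 52 members (9.62%) spanned more than 1 on the log2 scale, against 12.7% of named genes: Col5a1, Col19a1, Col4a3, Col3a1 and Col22a1. HD_miR196a mouse 2 was the highest mouse for 19 of the 52 members (36.5%), while it was the highest for 16.7% of named genes. HD mouse 2 was the lowest for 17 members (32.7%), and for 22.8% of named genes. Expressed as the median deviation from each gene's mean, HD_miR196a mouse 2 stood at 0.083 for basement membrane genes, 0.12 for fibrillar collagens and 0.11 for other collagens. The other HD_miR196a mice were at -0.060 and -0.041, at -0.041 and -0.14, and at 0.011 and -0.0010 for these classes. HD mice 1 and 2 were at 0.054 and -0.047, at 0.062 and -0.096, and at -0.045 and -0.039. Basement membrane and fibrillar genes thus had the same pair of mice on top, HD_miR196a mouse 2 and HD mouse 1. Their median differences were -0.032 and 0.029, each smaller than the spread of these class values between mice. Without scaling they were -0.24 and -0.14, where the median of all probes was -0.20. The first became 0.049 without HD mouse 1, 0.0089 without HD_miR196a mouse 1 and 0.023 without HD_miR196a mouse 3. The second became -0.061 without HD_miR196a mouse 2 and -0.046 without HD mouse 2.

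**Figure D3:**
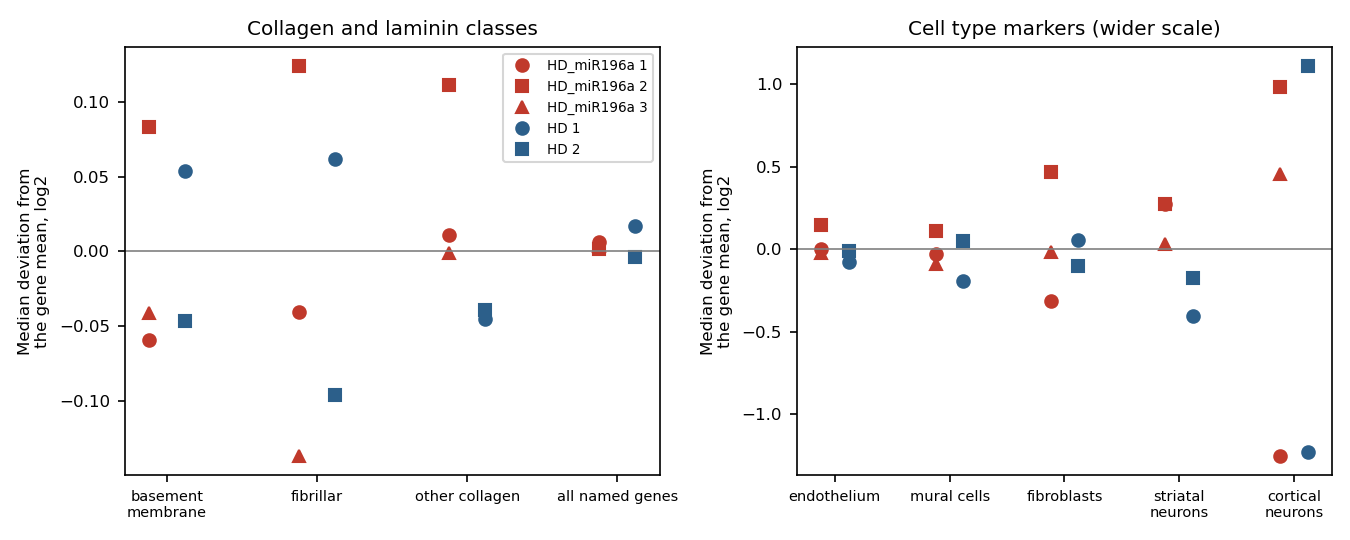
Median over genes of the deviation from the gene's mean over the 5 mice, on the log2 scale, by mouse, for 3 classes of collagen and laminin genes and all named genes (left) and for 5 lists of cell type markers (right, wider scale), with red for HD_miR196a and blue for HD. HD_miR196a mouse 2 (red square) is the highest of the 5 mice in all 3 collagen and laminin classes and among the fibroblast, endothelial and mural cell markers.

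Most fibroblast markers were also highest in HD_miR196a mouse 2, while Dpt and Islr were highest in HD mouse 1. The fibroblast list (12 of 12 genes measured, 6 of them above the Olfr range, none at 0) had a median deviation of 0.47 in HD_miR196a mouse 2, while mice 1 and 3 of that group stood at -0.31 and -0.017 and the HD mice at 0.054 and -0.099. Its summed intensity ranged from 6492 to 12000 in HD_miR196a mice and from 7565 to 8229 in HD mice. Dcn, the collagen-binding proteoglycan decorin made by fibroblasts, measured 10.59, 11.40 and 10.25 against 10.41 and 10.10. Col6a1, a chain of the beaded filaments of type VI collagen, measured 11.09, 11.64 and 10.84 against 10.99 and 10.79. HD_miR196a mouse 2 was highest for both genes, and HD_miR196a mouse 1 came next, as it did for Slc22a6. Most of the fibroblast list did not share that place of HD_miR196a mouse 1. That mouse was the lowest for Lum, Igf2, Slc6a13, Fn1, Dpt, Mgp, Aebp1 and Islr. The difference of Col6a1 was 0.30 ± 0.26 (SE, 95% interval -0.39 to 0.99), while Col6a2, its partner chain, was in the Olfr range and differed by 0.074 ± 0.10. The part of fibroblast content in these values was not tested.

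Col19a1 and Col5a1 varied most between mice. Col19a1, a collagen of basement membrane zones that some neurons make, measured 7.58, 8.67 and 8.64 against 7.52 and 9.09. The low mice were mouse 1 of each group, and the difference between groups was -0.0084 ± 0.60 (SE). Cortical neuron markers (5 of 6 measured, all 5 above the Olfr range) had summed intensities of 3806 and 3948 in the same 2 mice. In the other mice they summed to 18700 (HD_miR196a mouse 2), 12399 (HD_miR196a mouse 3) and 20791 (HD mouse 2). Col5a1, a fibrillar chain that starts type I fibrils, measured 2.49, 5.30 and 3.00 against 3.09 and 5.03. It was above the Olfr median of 4.99 only in mouse 2 of each group, and below it in the other 3. All 5 Col5a1 values were under the Olfr 95th percentile of 8.31. Its difference was -0.46 ± 1.06 (SE). Whether cortical tissue in the samples has a part in these values was not tested.

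**Figure D4:**
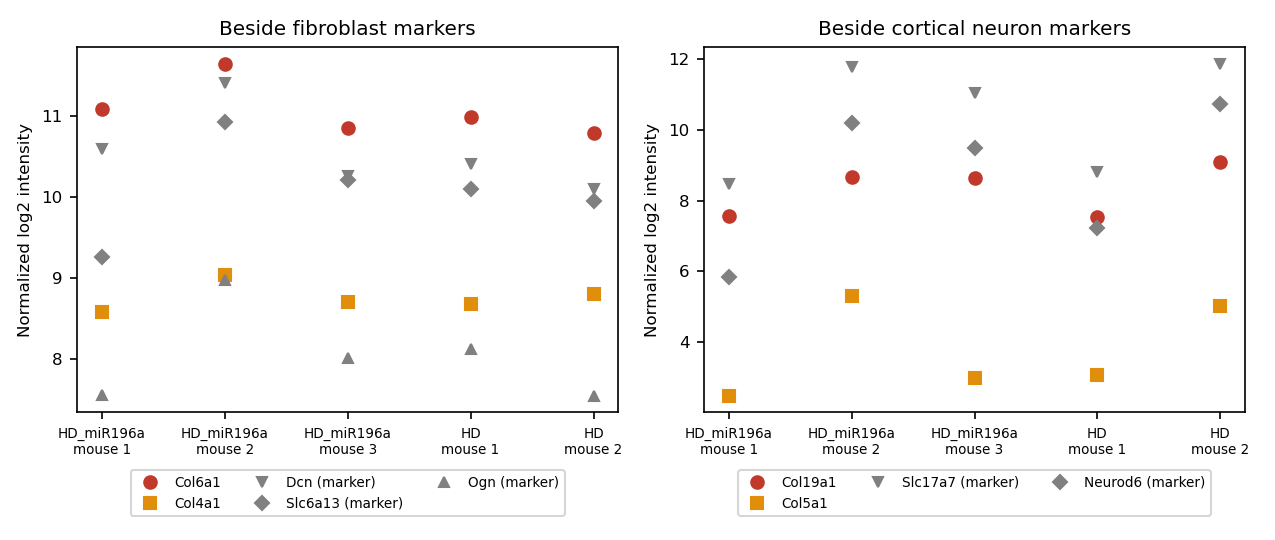
Normalized log2 intensity in each of the 5 mice for Col6a1 and Col4a1 beside 3 fibroblast markers (left) and for Col19a1 and Col5a1 beside 2 cortical neuron markers (right), with markers in grey. Col6a1, Col4a1 and the 3 fibroblast markers shown are all highest in HD_miR196a mouse 2. Col19a1 is low in the mice (mouse 1 of each group) in which Slc17a7 and Neurod6 are low, while Col5a1 is also low in HD_miR196a mouse 3.

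Vascular markers gave the setting for the basement membrane genes. Endothelial genes (9 of 10 measured, 4 above the Olfr range) had summed intensities from 5094 to 5310 in HD_miR196a mice and from 4808 to 5146 in HD mice. The endothelial list, like the fibroblast list, had its highest median deviation in HD_miR196a mouse 2, at 0.15. Mural cell genes (8 of 10 measured, 4 above the Olfr range) summed to 6233 to 7057 against 6079 to 6166, a separation of the groups by sum, while Tagln of that list was below the Olfr median. The brightest gene of that list, Vtn, weighs most in the sum, and its groups overlapped (12.20, 12.23 and 12.43 against 12.27 and 12.10). By median deviation the mural groups overlapped, at -0.027, 0.11 and -0.088 against -0.19 and 0.051, again highest in HD_miR196a mouse 2. Striatal neuron genes (5 of 7 measured, all above the Olfr range) marked the tissue as labelled, and their sums were 57339 to 66783 in HD_miR196a mice and 45042 to 47967 in HD mice. The part of these cell types in the collagen and laminin values was not tested.

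Genes that build, bind or cut the matrix were taken from lists of 73 genes, all measured. Limma called 0 of them at an adjusted p under 0.05, and 2 had an unadjusted p under 0.05, both higher, where 1.82% of named genes were higher and 1.89% lower. That count was 5 without HD_miR196a mouse 3 (6.85% of the 73, against 5.06% of named genes) and 4 without HD mouse 1 (5.48%, against 3.87%). Of the 28 enzymes and chaperones of collagen processing 16 were higher and 12 lower (7 and 21 without scaling, with 15 of 28 above the median of all probes). P3h3, a prolyl 3-hydroxylase family member that acts on collagen chains in the endoplasmic reticulum, had the smallest p of them. It measured 8.68, 8.63 and 8.79 against 8.28 and 8.27, with tight groups that did not overlap. The difference was 0.43 ± 0.10 (SE, unadjusted p = 0.00817, limma adjusted p = 0.979), and it was between 0.38 and 0.46 with 1 mouse left out and 0.23 without scaling. Serpinh1, which encodes the collagen chaperone HSP47, measured 7.97, 8.19 and 7.79 against 7.67 and 7.71, also without overlap, a difference of 0.29 ± 0.15 (SE, unadjusted p = 0.102) in the Olfr range, and of 0.12 without scaling.

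Receptors for collagens and laminins were higher for 10 and lower for 6 of 16 (3 and 13 without scaling, with 9 of 16 above the median of all probes). Itga10, a collagen-binding integrin of cartilage, measured 3.20, 3.29 and 2.89 against 2.56 and 2.63. Every HD_miR196a mouse was above both HD mice, by 0.53 ± 0.15 (SE, unadjusted p = 0.0187), at a level below the Olfr median. Itga2, another collagen-binding integrin, was also below the Olfr median and differed by -0.53 ± 0.35 (SE). The bright receptor Dag1, dystroglycan, which anchors laminin to glial endfeet, measured 11.92, 11.94 and 11.82 against 11.83 and 11.92, a difference of 0.016 ± 0.096. It was chosen after its values were seen.

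Other basement membrane proteins were higher for 7 and lower for 6 of 13 (0 and 13 without scaling, with 8 of 13 above the median of all probes). Nid1, the nidogen that links laminin to type IV collagen, measured 8.54, 8.70 and 8.37 against 8.44 and 8.25, a difference of 0.19 ± 0.14 (SE) that was -0.012 without scaling and -0.013 with the mean of its probes. Fbln1, fibulin-1, differed by 0.15 ± 0.12 (SE) in the Olfr range and by -0.049 without scaling. Proteases and their inhibitors were higher for 7 and lower for 9 of 16 (2 and 14 without scaling, with 9 of 16 above the median of all probes). Ctsb, the lysosomal protease cathepsin B, measured 13.60, 13.38 and 13.52 against 13.66 and 13.66, lower in each HD_miR196a mouse by a mean of -0.16 ± 0.11 (SE, unadjusted p = 0.198), and by -0.38 without scaling. Mmp16, a membrane-bound metalloprotease, differed by -0.26 ± 0.20 (SE), and by 0.018 without HD mouse 2.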

How the data were processed

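The authors deposited 1 linear intensity for each probe in each mouse. Per the labels' protocols, amplified RNA carried the dye Cy5, and the authors combined the 2 technical repeats of a mouse. The sources used here name no scanner, software or scaling. Some values are slightly below 0, so background had probably been subtracted. Deposited array medians ranged from 160.0 to 185.6. Intensities were quantile-normalized, floored at 1 and log2-transformed, and the groups were fitted using limma 3.58.1 under R 4.3.3 (lmFit, then eBayes; degrees of freedom were 3 from the residuals and 1.75 from the prior), two-sided, with Benjamini-Hochberg adjustment over 26423 probes. The fit was tested on simulated data. That test required a share of calls only for its largest planted change, well above any member difference. Power at the sizes seen among the members is not given here. Precision is limited by having 5 mice, each with 1 value per probe: with 3 mice against 2, the smallest p of an exact permutation test is 0.1. Each mouse is taken as a separate animal from its title.

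Of the probes, 20377 had 1 platform symbol and 6046 none; 18213 symbols matched RefSeq names of GRCm38.p6 directly, 2126 through a synonym and 38 not. The members and lists were chosen with earlier results of these data known. Named with values were the reported targets, all type IV genes, laminins above the Olfr range, and the 2 genes of smallest p in each class and list; others were chosen after their values were seen. Alternatives were other scalings, floors, filters, eBayes settings, probe means, the mouse number as a block, and mice left out.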

Additional observations from a re-analysis of the deposited data

How the results depend on the processing

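No setting called a collagen, laminin or matrix partner gene at an adjusted p under 0.05. Hardly any probe of the array was called either, so this count of 0 does not set these genes apart. Of 26423 probes the main fit called 0. Raising the floor to the Olfr median gave 4 called probes, and trend and robust eBayes gave 3. The 2 members at a limma unadjusted p under 0.05 became 4 without scaling, where 14.9% of named genes had such a p. The count was 1 with trend and robust eBayes. It was 0 to 6 with 1 HD_miR196a mouse left out, where 2.59% to 5.06% of named genes had such a p. With filters on brightness it was 0 of 15 above the Olfr 95th percentile and 0 of 21 above the median probe (fewer genes tested in both). In the main fit, 93 of the 8662 named genes above that percentile were higher at such a p and 77 lower. No share over all genes was computed for the brighter probes or for trend and robust eBayes. The 30 members above 0 became 9 without scaling, 8 of 15 and 11 of 21 under those filters, and 22 to 33 with 1 mouse left out. The basement membrane median difference of -0.032 became -0.24 without scaling, 0.085 without mouse 1 of each group (chosen with the data known), and -0.082 (without HD mouse 2) to 0.049 (without HD mouse 1) with 1 mouse left out. For fibrillar collagens 0.029 became -0.14 without scaling, -0.15 over the 2 genes above the Olfr percentile, and -0.061 (without HD_miR196a mouse 2) to 0.11 with 1 mouse left out. The cause was not tested beyond the shift of all probes by -0.20 without scaling.

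Mice share only the numbers 1 and 2, and the labels do not say whether equal numbers pair them. Across probes the deviations of equal-numbered mice had a correlation of 0.236 and 0.170. The replicate block takes HD_miR196a mouse 3, which has no partner, out of the difference, so its differences equal those without that mouse. With it 6 members (11.5%, against 6.89% of named genes) had an unadjusted p under 0.05 (Col4a2, Lamc3, Col11a2, Col14a1, Col9a1 and Col9a3), and Col4a3 differed by 0.18 and Lama2 by 0.060.

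Of 336 differences of 26 named genes under alternatives, 306 kept their sign and 30 changed it, none with a call. Part of the 306 could not change sign. The brightness filters and the trend and robust eBayes leave each difference as in the main fit. The replicate block repeats the differences without HD_miR196a mouse 3. Without scaling Col1a2 was at -0.14, Col4a1 at -0.18, Col4a2 at -0.049, Col4a6 at -0.062, Lamb3 at -0.15, Fbln1 at -0.049 and Nid1 at -0.012. Col4a1 was at -0.0081 with median centring, Col1a2 at -0.072 with the floor at the Olfr median, and Col4a6 and Nid1 at -0.060 and -0.013 with the mean of a gene's probes. Without mouse 1 of each group Lama2, Lamb2 and Lamc1 were at 0.11, 0.13 and 0.019. With 1 mouse left out Col1a1 ranged from -0.64 to 0.072, Col1a2 from -0.35 to 0.46, Col4a1 from -0.100 to 0.13, Col4a3 from -0.49 to 0.18, Lama2 from -0.26 to 0.19, Lamb2 from -0.16 to 0.089, Lamb3 from -0.089 to 0.18, Lamc1 from -0.074 to 0.0099 and Mmp16 from -0.53 to 0.018. A fit without 1 HD mouse assumes that the lone one varies like the other group. Col10a1, Itga10 and others wholly below the higher floor had no value there. Low signal limits 37 of the 52 members.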
